A study of Mus musculus with 10 samples.

Results

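The genes described here are 9 chromatin regulators that set the activity of the Hox genes, namely Kmt2a, Men1, Psip1 and Dot1l on the menin-MLL side and Ezh1, Ezh2, Eed, Suz12 and Bmi1 on the Polycomb side. They were chosen by symbol, and all 9 were found among the 16771 genes listed for each library. Their mRNA was measured by RNA-seq of total RNA depleted of ribosomal RNA, in 10 libraries from mouse (C57BL/6) bone marrow in 5 groups of 2 biological replicates. Npm1c HSPC came from Npm1flox-cA/+;Mx1-Cre+ mice, which carry a conditional allele of the leukaemia mutation that moves nucleophosmin to the cytoplasm. Flt3-ITD HSPC came from Flt3ITD/+ mice, with an internal tandem duplication in the receptor Flt3 and no Cre named. Double mutant (DM) HSPC came from Npm1flox-cA/+;Flt3ITD/+;Mx1-Cre+ mice, and WT neutrophils and WT HSPC came from wild-type mice. HSPC, short for haematopoietic stem and progenitor cells, were lineage-depleted with a magnetic kit and so are a mixture of progenitor stages, and neutrophils, the end stage of granulocyte maturation, were taken with a neutrophil isolation kit. Mx1-Cre is an interferon-inducible recombinase that acts in many tissues. The labels state neither ages, nor an induction schedule, nor the share of cells recombined. Mx1-Cre is named only for the Npm1c and DM mice, so the Npm1c allele and Cre cannot be told apart. The study asks how the 2 mutations, alone and together, change gene expression on the way to leukaemia.

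Menin and MLL1 (KMT2A) form a complex that methylates histone H3 near promoters (the H3K4 mark), is held on chromatin by LEDGF (PSIP1), and works beside the H3K79 methyltransferase DOT1L at the HoxA genes and Meis1. Polycomb complexes oppose it: PRC2, built on EZH1 or EZH2 with EED and SUZ12, sets the H3K27 methyl mark, and PRC1, which can contain BMI1, ubiquitylates histone H2A. In blood, HoxA genes and Meis1 are active in stem and early progenitor cells and are switched off during maturation, and NPM1-mutant leukaemia cells keep them active.

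RPKM divides the reads of a gene by its length and by a total for the library. The deposited RPKM values imply library totals of 40783015 to 57824373 reads, of which 60.9% to 81.3% fell on the listed genes, and the 9 genes held 381 to 12286 reads each per library. Because that share differed between libraries, each library was divided by a median-of-ratios factor, and "scaled RPKM" below means the result. The 13 stem and progenitor markers summed to 115 to 148 scaled RPKM in the HSPC libraries and to 35.6 to 36.4 in neutrophils. Kit, the stem cell factor receptor, averaged 14.0, 10.7 and 8.95 scaled RPKM in Npm1c, Flt3-ITD and DM HSPC, 2.63 in neutrophils and 11.8 in WT HSPC, but 4 or 5 of the 13 lay under 1 in both libraries of each HSPC group, and Mecom, a gene of the most immature stem cells, stayed at 0.0595 scaled RPKM or less. Neutrophil markers, 18 genes in all, summed to 140865 and 142027 scaled RPKM in neutrophils and to 50.3 to 410 in the HSPC libraries. Transcripts of Y-linked genes were present in 2 libraries, Npm1c replicate 2 and Flt3-ITD replicate 1. Replicates differed by more than sampling noise in every group.

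With the scaling used here, 2 of the 9 genes changed in Npm1c HSPC, 0 in Flt3-ITD HSPC, 6 in DM HSPC and 7 in neutrophils, each against WT HSPC, and Ezh1 and Kmt2a rose in DM HSPC and in neutrophils; the counts and the direction of several changes moved with the scaling. In Npm1c against WT HSPC, 2 of 9 rose and none fell, where 38.7% of the 9560 genes tested were called (18.4% higher, 20.2% lower). On the RPKM as deposited none of the 9 rose and 5 fell, where 244 of 9560 genes rose and 5537 fell. Scaled to the sum over listed genes none rose and 2 fell, Men1 (-0.18, adjusted p = 0.0477) and Ezh1 (-0.22, adjusted p = 0.0165), where 951 of all genes rose and 2969 fell. In Flt3-ITD against WT HSPC, 0 of 9 were called by limma, where 18.4% of genes were called (8.91% higher, 9.48% lower); 4 of the 9 had an unadjusted p under 0.05, and 1 was called by limma with voom weights on recovered reads. The count was 4 of 9, all lower, on the deposited RPKM and likewise when scaled to the sum over listed genes. Over all 9560 genes 179 rose and 2982 fell on the deposited RPKM, and 393 and 2009 on the listed sum. In DM against WT HSPC, 2 rose, 4 fell and 3 did not pass, where 77.8% of genes were called (38.7% higher, 39.0% lower). On the deposited RPKM and after quantile normalization 1 of the 9 rose and 7 fell. Over all 9560 genes 2333 rose and 5588 fell on the deposited RPKM, and 2880 and 5028 after quantile normalization. In WT neutrophils against WT HSPC, 2 rose, 5 fell and 2 did not pass, where 91.2% of 10217 genes were called (44.6% higher, 46.6% lower). On the deposited RPKM 1 rose and 7 fell, and scaled to the listed sum 1 rose and 8 fell. Over all 10217 genes 2994 rose and 6296 fell on the deposited RPKM, and 2392 and 7083 on the listed sum. A call is an adjusted p under 0.05, from limma with Benjamini-Hochberg adjustment over all genes tested. With the scaling used here, in none of these 4 comparisons did the share of members called exceed the share of all genes called. The 4 comparisons share the WT HSPC libraries. In such bulk samples, fewer cells of a type and less RNA per cell cannot be told apart.

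**Figure D1:**
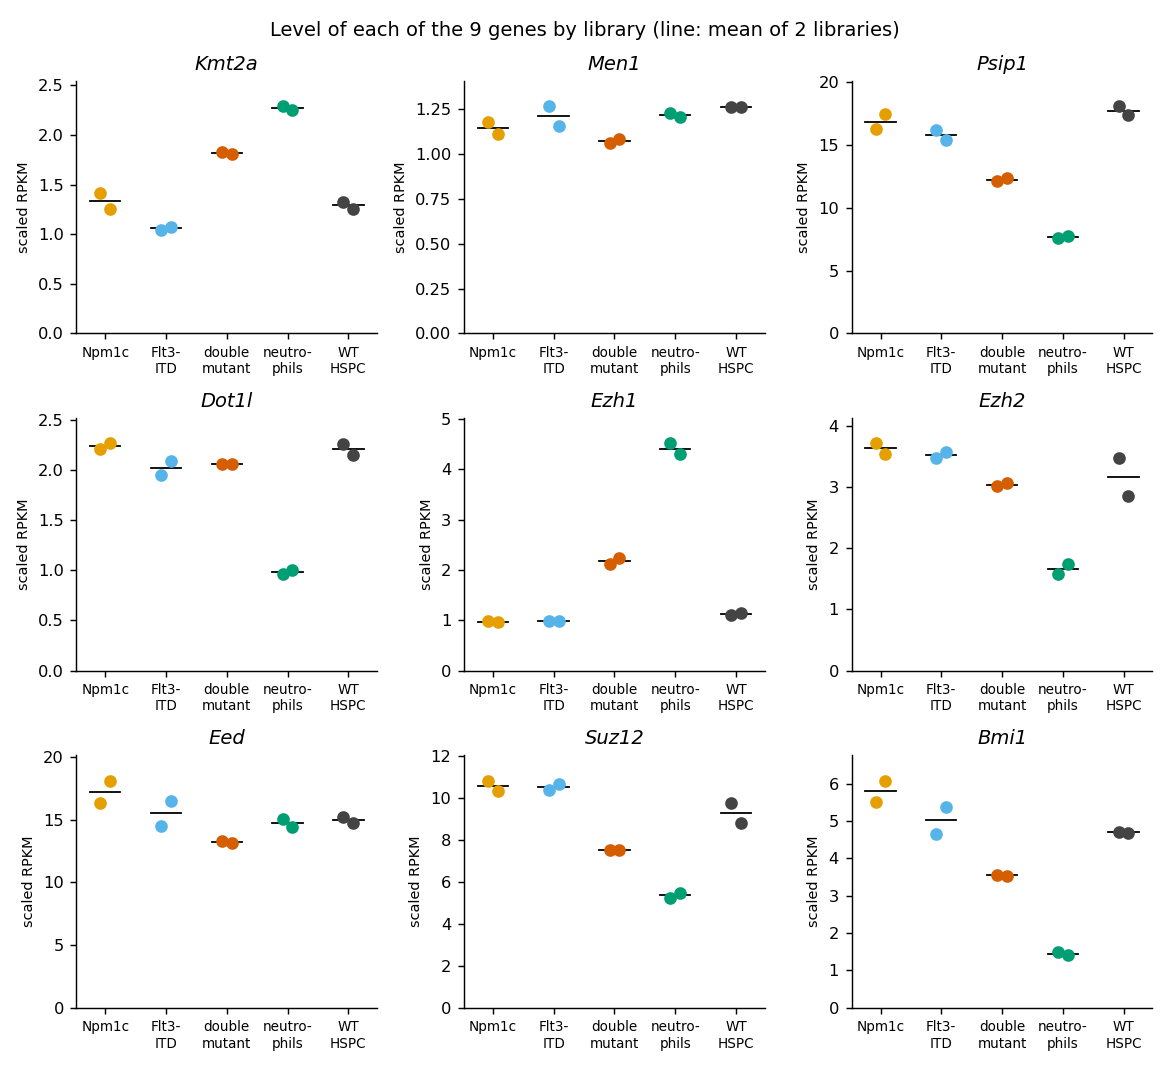
Scaled RPKM (vertical axis, from 0) of each gene in the 2 libraries of Npm1c HSPC, Flt3-ITD HSPC, DM HSPC, WT neutrophils and WT HSPC; points are libraries and lines are means. Ezh1 and Kmt2a were high in DM HSPC and neutrophils (Kmt2a was lower in neutrophils when libraries were scaled to the sum over listed genes), Psip1, Suz12 and Bmi1 were low in both, Ezh2 and Dot1l were low in neutrophils, and Men1 and Eed varied least.

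Levels can be compared between genes only per length, and the length behind the deposited values does not serve for this: it lay within 5% of the summed length of all annotated exons of all transcripts for 69.2% of genes, so a gene with many annotated transcripts appears low. Recomputed over union exon length (each exonic base counted once, GENCODE M21), Psip1 was the most abundant member in every group, at 32.4 ± 1.6 scaled RPKM in Npm1c, 30.4 ± 1.1 in Flt3-ITD and 23.5 ± 0.26 in DM HSPC, 14.8 ± 0.30 in neutrophils and 34.1 ± 0.93 in WT HSPC (SD, n = 2). Suz12 came next in every group, and Ezh1 came last in every HSPC group, in the DM at 4.72 ± 0.19 and level with Kmt2a at 4.74 ± 0.038 (SD, n = 2). This order rests on the union length, which exceeds the longest annotated transcript unequally. The bases were 7440 against 4207 for Ezh1, 16670 against 16470 for Kmt2a, 6678 against 2787 for Ezh2 and 4945 against 4373 for Suz12. Another length can thus change the places of these genes. On the deposited length Eed, whose length there (2505 bases) is below its union exon length (3828 bases), came above Suz12 in every group, and Men1 (25039 against 3835 bases) was understated most. On union exon length Men1 reached 8.25 ± 0.0015 scaled RPKM in WT HSPC (SD, n = 2), between Eed at 9.79 ± 0.20 and Dot1l at 5.51 ± 0.20. Ezh1 in neutrophils stood at 9.53 ± 0.32 scaled RPKM over union exon length, next to Eed at 9.64 ± 0.30, a difference within the spread of the libraries.

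**Figure D2:**
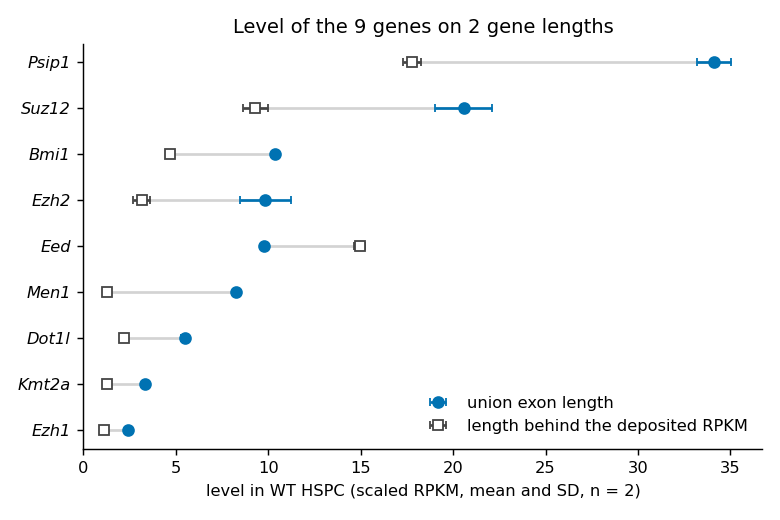
Mean level of the 9 genes in WT HSPC in scaled RPKM (horizontal axis; bars are SD, n = 2), over union exon length (filled circles) and over the length behind the deposited values (open squares). Men1 stood at 8.25 on union exon length and at 1.26 on the deposited length, and Eed moved the other way.

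Kmt2a (chr9:44803355-44881296, GRCm38, minus strand) encodes MLL1, the methyltransferase of the complex. It measured 1.42 and 1.25 scaled RPKM in Npm1c, 1.04 and 1.08 in Flt3-ITD and 1.83 and 1.81 in DM HSPC, 2.29 and 2.25 in neutrophils, and 1.33 and 1.26 in WT HSPC. Both DM and both neutrophil libraries lay above all others, Npm1c overlapped WT, and both Flt3-ITD libraries were lowest. Kmt2a rose in DM HSPC by 0.37 ± 0.058 (log2 change ± SE, adjusted p = 7.81e-04) and in neutrophils by 0.63 ± 0.053 (adjusted p = 4.47e-06). In Flt3-ITD HSPC its log2 change was -0.20 ± 0.058 (adjusted p = 0.0558). Without Flt3-ITD replicate 2 it was -0.22 and was called, in a fit that called more genes over all genes too. These calls rest on the scaling. On the deposited RPKM, where the median gene shifted by -0.33 in DM HSPC and by -0.66 in neutrophils, the change of Kmt2a was 0.10 in DM HSPC (adjusted p = 0.176) and 0.015 in neutrophils (adjusted p = 0.808), and after quantile normalization the change in DM HSPC was 0.14 (adjusted p = 0.0599). Scaled to the sum over listed genes, Kmt2a was lower in neutrophils, at -0.31 (adjusted p = 7.04e-04).

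Men1 (chr19:6334979-6340891, plus strand) encodes menin, the adaptor that joins MLL1 to LEDGF. It measured 1.18 and 1.11 scaled RPKM in Npm1c, 1.27 and 1.15 in Flt3-ITD and 1.06 and 1.08 in DM HSPC, 1.23 and 1.20 in neutrophils, and 1.26 in both WT HSPC libraries. Its group means spanned 1.18-fold, the narrowest range of the 9 genes. Men1 fell in DM HSPC by 0.17 ± 0.053 on the log2 scale (adjusted p = 0.0239). The call was lost without any 1 of the 4 libraries compared, where the change was -0.16 to -0.17 and calls over all genes fell too. It was also lost with factors from the 8 HSPC libraries (-0.13, adjusted p = 0.0751), and the change was -0.43 on the deposited RPKM. In neutrophils its log2 change was -0.04 ± 0.048 (adjusted p = 0.449), against -0.60 on the deposited RPKM (adjusted p = 2.95e-05).

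Psip1 (chr4:83455680-83486459, minus strand) encodes LEDGF, the chromatin reader that anchors menin and MLL1 to active genes. It measured 16.3 and 17.5 scaled RPKM in Npm1c, 16.2 and 15.4 in Flt3-ITD and 12.2 and 12.3 in DM HSPC, 7.57 and 7.79 in neutrophils, and 18.1 and 17.4 in WT HSPC. The DM libraries lay below every other HSPC library and above both neutrophil libraries, and Npm1c overlapped WT. Psip1 fell in DM HSPC by 0.52 ± 0.051 on the log2 scale (adjusted p = 7.10e-05) and in neutrophils by 1.16 ± 0.048 (adjusted p = 3.67e-08), and the changes were -0.87 and -1.91 on the deposited RPKM. In Flt3-ITD HSPC its log2 change was -0.16 ± 0.051 (adjusted p = 0.0706). Without Flt3-ITD replicate 1 it was -0.19 and was called, again in a fit that called more genes over all genes. Psip1 shares 483 exonic bases with Snapc3 on the opposite strand, whose highest value was 1.31 RPKM. Kmt2a (378 bases), Eed (261), Suz12 (178) and Ezh2 (174) also share exonic bases with opposite-strand genes, which are not among the listed genes.

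Dot1l (chr10:80755206-80795461, plus strand), the H3K79 methyltransferase, measured 2.20 and 2.26 scaled RPKM in Npm1c, 1.95 and 2.09 in Flt3-ITD and 2.06 and 2.05 in DM HSPC, 0.958 and 1.01 in neutrophils, and 2.26 and 2.15 in WT HSPC. The neutrophil libraries stood apart below all 8 HSPC libraries, and the HSPC groups lay close to each other. Dot1l fell in neutrophils by 0.87 ± 0.049 on the log2 scale (adjusted p = 2.62e-07), and by 1.43 on the deposited RPKM. In DM HSPC its log2 change was -0.08 ± 0.051 (adjusted p = 0.186), whereas on the deposited RPKM and after quantile normalization it was called lower (-0.38 and -0.31).

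Ezh1 and Ezh2 encode the interchangeable methyltransferases of PRC2; EZH2 is known as the form of dividing cells, and EZH1 as the weaker enzyme that prevails in resting and mature cells. Their promoters are shown because these genes moved in opposite directions in neutrophils. The bases run from 150 before to 20 after the start site in RefSeq (GRCm38.p6), at chr11:101226444-101226613 for Ezh1 and chr6:47595011-47595180 for Ezh2, both on the minus strand, and capitals mark motif matches.
Ezh1: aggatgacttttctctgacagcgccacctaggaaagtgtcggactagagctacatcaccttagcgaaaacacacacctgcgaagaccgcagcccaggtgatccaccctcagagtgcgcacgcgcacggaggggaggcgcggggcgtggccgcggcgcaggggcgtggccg
Ezh2: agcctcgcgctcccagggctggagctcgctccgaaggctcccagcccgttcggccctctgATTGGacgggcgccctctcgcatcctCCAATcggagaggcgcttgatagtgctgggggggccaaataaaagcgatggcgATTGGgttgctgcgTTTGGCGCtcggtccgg
Both stretches are rich in G and C, at 64.7% for Ezh1 and 65.9% for Ezh2. Of 4 motifs searched on both strands in the 300 bases from 250 before to 50 after the start site, the Ezh2 window held CCAAT boxes (CCAAT or ATTGG) at -90, -64 and -11 and 1 E2F element (TTTNNCGC or GCGNNAAA, here TTTGGCGC) at 4, none overlapping another. The Ezh1 window held no match to these or to the E-box CACGTG and the CHR element TTTGAA. Among 32851 mouse promoters, 37.4% held a CCAAT box, 5.17% the E2F element, 7.15% the E-box and 17.9% the CHR element. Of the 8 members with a promoter sequence, Suz12 also held an E2F element (at -219) with a CCAAT box (at -61). A match is a run of letters and was not tested as a binding site.

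Ezh1 (chr11:101191115-101226463, minus strand) measured 0.980 and 0.967 scaled RPKM in Npm1c, 0.983 and 0.980 in Flt3-ITD and 2.12 and 2.24 in DM HSPC, 4.51 and 4.30 in neutrophils, and 1.10 and 1.14 in WT HSPC. The DM libraries lay above every other HSPC library and below both neutrophil libraries, with no overlap, and all single-mutant libraries lay below both WT libraries. Ezh1 rose in DM HSPC by 0.73 ± 0.048 on the log2 scale (adjusted p = 9.70e-06) and in neutrophils by 1.60 ± 0.046 (adjusted p = 4.38e-09). These changes were 0.46 and 0.95 on the deposited RPKM, both still called. In Npm1c and Flt3-ITD HSPC its log2 change was -0.14 ± 0.048 (adjusted p = 0.0634) and -0.13 ± 0.048 (adjusted p = 0.110).

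Ezh2 (chr6:47530139-47595341, minus strand) measured 3.71 and 3.54 scaled RPKM in Npm1c, 3.47 and 3.56 in Flt3-ITD and 3.01 and 3.06 in DM HSPC, 1.58 and 1.74 in neutrophils, and 3.48 and 2.84 in WT HSPC. The WT HSPC libraries spread enough to enclose the DM libraries, and only the neutrophils stood apart. Ezh2 fell in neutrophils by 0.76 ± 0.080 on the log2 scale (adjusted p = 2.10e-05), and by 1.39 on the deposited RPKM. In DM HSPC its log2 change was -0.04 ± 0.081 (adjusted p = 0.629). It was called lower there on the deposited RPKM (-0.37, adjusted p = 0.00710) and after quantile normalization (-0.24, adjusted p = 0.0268). With the scaling used here 1 WT library set its sign: it was 0.08 without WT HSPC replicate 1 (adjusted p = 0.276) and -0.17 without WT HSPC replicate 2 (adjusted p = 0.0474). In Npm1c HSPC its log2 change was 0.18 ± 0.081 (adjusted p = 0.121), and 0.30 without WT HSPC replicate 1 (adjusted p = 0.0316).

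The balance of the enzymes can be read within each library, free of the scaling factor apart from the added pseudocount. The log2 ratio of Ezh1 to Ezh2, on RPKM plus 0.5, averaged -1.49 in Npm1c, -1.47 in Flt3-ITD and -0.40 in DM HSPC, 1.12 in neutrophils and -1.22 in WT HSPC. The WT HSPC libraries, at -1.37 and -1.07, were the most spread, and the DM libraries, at -0.42 and -0.37, lay above every other HSPC library. Over union exon length and with no pseudocount, the ratio was 0.186 in Npm1c, 0.194 in Flt3-ITD and 0.499 in DM HSPC, 1.84 in neutrophils and 0.247 in WT HSPC, so the level of Ezh1 exceeded that of Ezh2 in neutrophils and in no HSPC group. The ratio is given as a description, and no test of it was run.

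**Figure D3:**
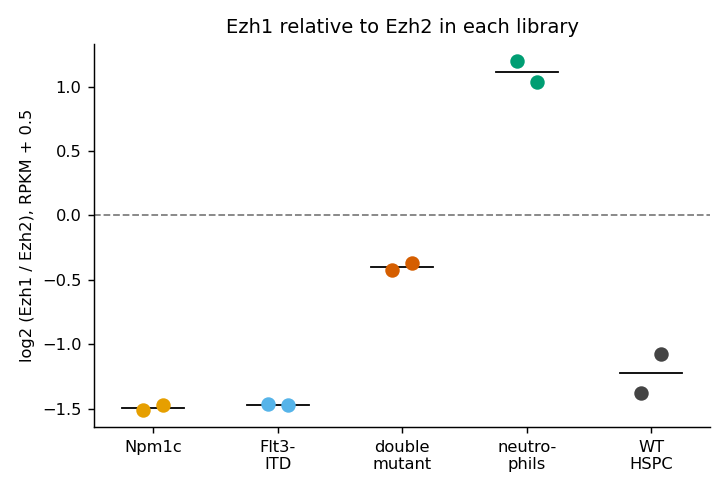
Log2 ratio of Ezh1 to Ezh2 (RPKM plus 0.5, vertical axis) in each library of the 5 groups; lines are means of 2 libraries and the dashed line marks equal values. The DM libraries (-0.42 and -0.37) lay between the other HSPC libraries and the neutrophils (1.20 and 1.04).

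Eed (chr7:89954654-89980983, minus strand), the PRC2 subunit that reads the H3K27 mark, measured 16.3 and 18.1 scaled RPKM in Npm1c, 14.5 and 16.5 in Flt3-ITD and 13.3 and 13.1 in DM HSPC, 15.1 and 14.4 in neutrophils, and 15.2 and 14.7 in WT HSPC. Its level in neutrophils overlapped that in WT HSPC, with a log2 change of -0.02 ± 0.069 (adjusted p = 0.770), but it was called lower on the deposited RPKM (-0.79, adjusted p = 3.46e-06) and after quantile normalization (-0.43, adjusted p = 3.86e-04). In DM HSPC the log2 change was -0.17 ± 0.073 (adjusted p = 0.0613), and it was called lower under those 2 scalings (-0.53 and -0.32).

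Suz12 (chr11:79993106-80034123, plus strand), the scaffold of PRC2, measured 10.8 and 10.4 scaled RPKM in Npm1c, 10.4 and 10.7 in Flt3-ITD and 7.53 and 7.55 in DM HSPC, 5.23 and 5.49 in neutrophils, and 9.80 and 8.82 in WT HSPC. The DM libraries lay below all other HSPC libraries and above the neutrophils. Suz12 fell in DM HSPC by 0.28 ± 0.057 on the log2 scale (adjusted p = 0.00288) and in neutrophils by 0.74 ± 0.056 (adjusted p = 1.88e-06), and the changes were -0.63 and -1.47 on the deposited RPKM. It rose in Npm1c HSPC by 0.18 ± 0.057 (adjusted p = 0.0450). That last call was lost without WT HSPC replicate 2 (0.11, adjusted p = 0.221), without Npm1c replicate 1 (0.15, adjusted p = 0.178) and without Npm1c replicate 2 (0.21, adjusted p = 0.0877), and the sign turned on the deposited RPKM (-0.10, adjusted p = 0.220).

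Bmi1 (chr2:18677018-18686629, plus strand) encodes a PRC1 subunit known for its need in stem cell self-renewal and for repression of Cdkn2a. It measured 5.52 and 6.08 scaled RPKM in Npm1c, 4.65 and 5.38 in Flt3-ITD and 3.57 and 3.53 in DM HSPC, 1.48 and 1.40 in neutrophils, and 4.70 and 4.69 in WT HSPC. Npm1c lay above all other groups, DM lay below all other HSPC libraries, and the neutrophils were lowest. Bmi1 fell in neutrophils by 1.42 ± 0.070 on the log2 scale (adjusted p = 1.13e-07) and in DM HSPC by 0.36 ± 0.074 (adjusted p = 0.00314), with the DM change at -0.69 on the deposited RPKM. It rose in Npm1c HSPC by 0.28 ± 0.074 (adjusted p = 0.0257). On the deposited RPKM the change in Npm1c HSPC was 0.0076 (adjusted p = 0.927), and the call was also lost without WT HSPC replicate 1 (0.28, adjusted p = 0.106), without WT HSPC replicate 2 (0.27, adjusted p = 0.114) and without Npm1c replicate 2 (0.21, adjusted p = 0.128).

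**Figure D4:**
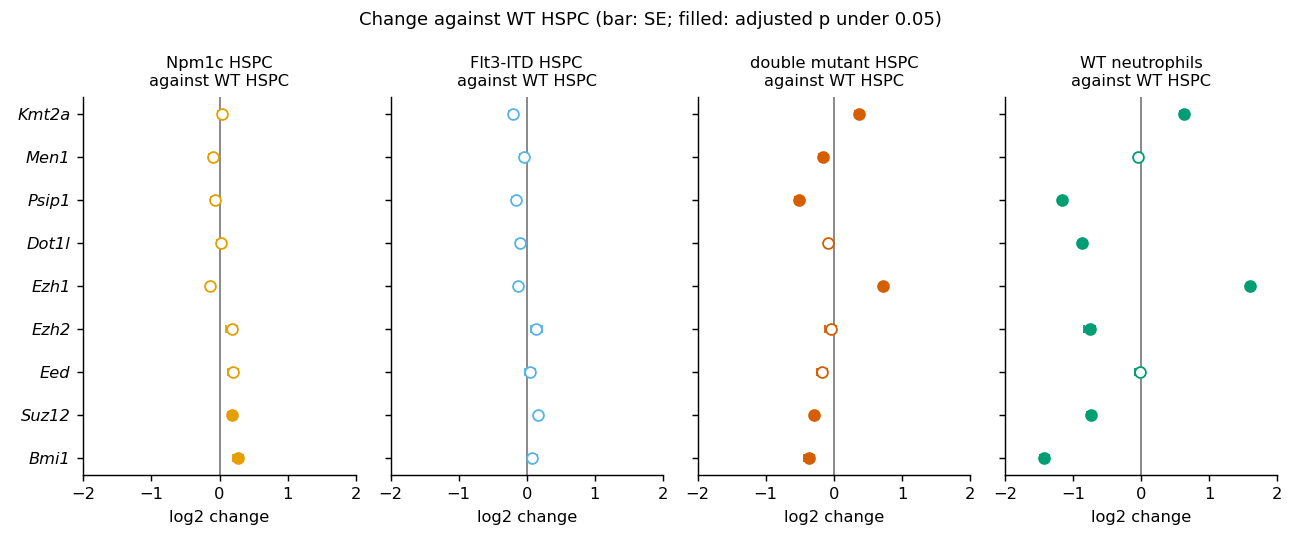
Log2 change (horizontal axis, scaled RPKM plus 0.5; bars are SE) of each gene in Npm1c HSPC, Flt3-ITD HSPC, DM HSPC and WT neutrophils, each against WT HSPC; filled points have an adjusted p under 0.05. All changes in the single mutants lie within -0.20 and 0.28, and the widest in neutrophils are Ezh1 at 1.60 and Bmi1 at -1.42.

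To ask whether the DM differed from what the single mutants add up to, the change on adding Npm1c in Flt3-ITD cells was compared with the change on adding it in WT cells (interaction term). By this test 2 of the 9 genes had a positive term and 5 a negative one, where 73.5% of all genes were called (37.8% positive, 35.7% negative). Ezh1 (0.99 ± 0.068, adjusted p = 1.88e-05) and Kmt2a (0.54 ± 0.083, adjusted p = 8.28e-04) were more abundant in the DM than the sum of the single effects. Bmi1 (-0.72 ± 0.10, adjusted p = 6.48e-04), Suz12 (-0.64 ± 0.081, adjusted p = 3.39e-04), Eed (-0.42 ± 0.10, adjusted p = 0.00841), Ezh2 (-0.36 ± 0.11, adjusted p = 0.0240) and Psip1 (-0.28 ± 0.072, adjusted p = 0.00935) were less abundant than that sum. Men1 (-0.019 ± 0.075) and Dot1l (0.0062 ± 0.073) did not pass. After quantile normalization both were called negative (Men1 -0.37, adjusted p = 0.00174, and Dot1l -0.27, adjusted p = 0.0209), which made 7 negative terms, and the Kmt2a term was 0.24. Over all genes 2827 terms were positive and 4610 negative after that normalization. On the deposited RPKM the terms of Psip1 (-0.18, adjusted p = 0.212) and Ezh2 (-0.27, adjusted p = 0.104) were lost. The Ezh2 term was also lost with factors from the 8 HSPC libraries (-0.29, adjusted p = 0.0584) and without Npm1c replicate 1 (-0.33), DM replicate 1 (-0.35) or DM replicate 2 (-0.37), and was -0.24 (adjusted p = 0.0387) without WT HSPC replicate 2.

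The DM was also set against each single mutant directly, comparisons that share the DM libraries. Against Npm1c HSPC, 2 rose and 5 fell, where 80.9% of genes were called (40.0% higher, 40.8% lower): Ezh1 rose by 0.86 and Kmt2a by 0.34, and Bmi1 fell by 0.64, Suz12 by 0.47, Psip1 by 0.45, Eed by 0.37 and Ezh2 by 0.22 on the log2 scale. After quantile normalization 1 rose and 7 fell: Kmt2a was lost (0.04, adjusted p = 0.576), and Men1 (-0.42, adjusted p = 1.15e-04) and Dot1l (-0.38, adjusted p = 6.30e-04) were called lower. Over all genes 2925 rose and 5140 fell after that normalization. Dot1l was also called lower on the deposited RPKM (-0.16, adjusted p = 0.0398) and scaled to the listed sum (-0.15, adjusted p = 0.0368). The Ezh2 call was lost without any 1 of the 4 libraries (-0.19 to -0.25), where calls over all genes fell too. Ezh2 also missed the threshold with factors from the 8 HSPC libraries (-0.16, adjusted p = 0.120) or where every listed gene was tested (adjusted p = 0.0590). Against Flt3-ITD HSPC, 2 rose and 4 fell, where 78.3% of genes were called (39.0% higher, 39.3% lower): Ezh1 rose by 0.86 and Kmt2a by 0.57, and Suz12 fell by 0.46, Bmi1 by 0.44, Psip1 by 0.36 and Eed by 0.22. Scaled to the listed sum, and on the deposited RPKM, 2 rose and 6 fell, with Men1 (-0.17 and -0.25) and Ezh2 (-0.24 and -0.35) added, and after quantile normalization 2 rose and 7 fell, with Men1 (-0.40), Ezh2 (-0.39) and Dot1l (-0.19, adjusted p = 0.0176) added. Over all genes 3442 rose and 4120 fell on the listed sum. These counts were 2797 and 4646 on the deposited RPKM, and 2895 and 4964 after quantile normalization. Eed missed the threshold with factors from the 8 HSPC libraries (-0.16, adjusted p = 0.0779) and when Flt3-ITD replicate 2 was left out (-0.13). It likewise missed it without DM replicate 1 (-0.23) or DM replicate 2 (-0.21), where calls over all genes fell too. Men1 was called lower without Flt3-ITD replicate 2 (-0.17), over union exon length and with voom weights.

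How the libraries were scaled set the background for all of these. Of the genes called with the scaling used here, 52.3% were lower in Npm1c, 51.5% in Flt3-ITD, 50.2% in DM and 51.1% in neutrophils, each against WT HSPC. On the deposited RPKM the share lower was 95.8% in Npm1c, 94.3% in Flt3-ITD, 70.5% in DM and 67.8% in neutrophils. Scaled to the sum over listed genes it was 75.7% in Npm1c, 83.6% in Flt3-ITD, 60.9% in DM and 74.8% in neutrophils. After quantile normalization the share lower was 63.6% in DM against WT HSPC, where the scaling used here gave 50.2%. It was 63.7% in DM against Npm1c (50.5% with the scaling used here) and 63.2% in DM against Flt3-ITD (50.2%, and 62.4% on the deposited RPKM). For the interaction the share negative was 62.0% after quantile normalization, against 48.6% with the scaling used here. Scaled to the listed sum, the falls in neutrophils were wider (Psip1 -2.31, Dot1l -1.69, Ezh2 -1.70, Suz12 -1.86 and Bmi1 -2.35), the rise of Ezh1 was narrower (0.60), and Men1 (-0.87) and Eed (-1.20) were called lower.

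Partners of the 9 proteins were then counted from lists of other subunits. Of the other menin-MLL subunits 9 of 11 fell in DM HSPC and none rose, where 39.0% of all genes fell and 38.7% rose. Their median log2 change was -0.38, against -0.0082 over all genes tested, and 9 to 11 fell with none rising under each other library scaling counted. They included Wdr5, a scaffold subunit of the complex (-0.59 ± 0.042, adjusted p = 1.47e-05, at 9.84 scaled RPKM in DM and 15.0 in WT HSPC), and the host cell factors Hcfc1 (-0.53 ± 0.038) and Hcfc2 (-0.57 ± 0.053). In neutrophils, where 46.6% of all genes fell and 44.6% rose, 7 of these 11 fell and 4 rose (10 fell and 0 or 1 rose on the deposited and listed-sum scalings). Dpy30, a core subunit of all MLL-type complexes, fell in neutrophils by 1.49 ± 0.062 (adjusted p = 3.57e-08) and rose in Npm1c HSPC by 0.47 ± 0.045 (adjusted p = 0.00137) and in Flt3-ITD HSPC by 0.38 ± 0.045 (adjusted p = 0.00562). It averaged 33.2, 31.2 and 17.8 scaled RPKM in Npm1c, Flt3-ITD and DM HSPC, 8.19 in neutrophils and 23.9 in WT HSPC. Without WT HSPC replicate 1 or replicate 2 the Flt3-ITD change of Dpy30 stayed at 0.37 and 0.38 but was no longer called. Most calls over all genes in that comparison were lost in those fits too.

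Of 14 tested partners of DOT1L and the elongation machinery, 4 rose and 7 fell in DM HSPC, with a median log2 change of -0.17; with 77.8% of all genes called, 11 of 14 is near the background. The counts were 2 higher and 10 lower on the deposited RPKM, and after quantile normalization 3 rose and 10 fell. Mllt6, a DOT1L cofactor, rose by 1.33 ± 0.086 (adjusted p = 8.26e-06) and the elongation scaffold Aff1 by 0.99 ± 0.067 (adjusted p = 1.08e-05), while the elongation factor partner Eaf1 fell by 0.42 ± 0.048 (adjusted p = 1.71e-04). In neutrophils 9 rose and 4 fell, where 44.6% of all genes rose and 46.6% fell. On the deposited RPKM 5 rose and 9 fell in neutrophils, so the balance of this list turned with the scaling. Aff1 rose there by 1.80 ± 0.062 (adjusted p = 1.16e-08).

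Among 7 tested PRC2 partners, 4 rose and 3 fell in DM HSPC (38.7% and 39.0% of all genes), a split of 3 or 4 higher and 3 lower under each other scaling counted. Phf1, which recruits PRC2 to chromatin, averaged 0.951, 0.671 and 2.78 scaled RPKM in Npm1c, Flt3-ITD and DM HSPC, 24.3 in neutrophils and 0.835 in WT HSPC. It rose in DM HSPC by 1.30 ± 0.068 (adjusted p = 3.08e-06) and in neutrophils by 4.21 ± 0.062 (adjusted p = 1.59e-10). Its relative Mtf2, with a like role, fell in DM HSPC by 0.71 ± 0.049 (adjusted p = 1.18e-05), and the cofactor Jarid2 rose by 0.83 ± 0.090 (adjusted p = 1.19e-04). In neutrophils, where 44.6% of all genes rose and 46.6% fell, 3 rose and 4 fell, among them the histone-binding Rbbp7 (-1.83 ± 0.044, adjusted p = 1.70e-09).

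Of the other PRC1 subunits, 4 of 15 tested rose and 7 fell in DM HSPC (1 and 11 on the deposited RPKM, 2 and 11 after quantile normalization), against 38.7% and 39.0% of all genes. There Cbx6, a reader of the H3K27 mark, fell by 1.20 ± 0.075 (adjusted p = 7.14e-06) and Phc2, a polymerising subunit, rose by 0.51 ± 0.049 (adjusted p = 6.52e-05). In neutrophils, where 44.6% of all genes rose and 46.6% fell, 7 of 16 rose and 9 fell. Pcgf6, which takes the place of BMI1 in a variant complex, fell there by 2.60 ± 0.079 (adjusted p = 5.77e-09) to 0.996 scaled RPKM, against 8.52 in WT HSPC. The enzymes that remove Polycomb marks held 5 tested genes, of which 2 rose and 2 fell in DM HSPC and in neutrophils alike. Kdm6b, an H3K27 demethylase, averaged 1.44, 0.969 and 4.15 scaled RPKM in Npm1c, Flt3-ITD and DM HSPC, 15.5 in neutrophils and 0.938 in WT HSPC, a rise of 1.69 ± 0.059 in DM HSPC (adjusted p = 3.62e-07) and 3.47 ± 0.063 in neutrophils (adjusted p = 4.05e-10). Bap1, the deubiquitinase of histone H2A, fell in DM HSPC by 0.37 ± 0.045 (adjusted p = 2.39e-04). Of the other H3K4 enzymes, 2 of 7 rose and 3 fell in DM HSPC: the methyltransferase Kmt2d rose by 0.86 ± 0.076 (adjusted p = 4.08e-05) and the demethylase Kdm5b fell by 1.14 ± 0.059 (adjusted p = 2.67e-06). In neutrophils 6 of 8 rose (4 rose and 4 fell when scaled to the sum over listed genes), Kdm5b among them (1.43 ± 0.054, adjusted p = 2.04e-08).

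In Npm1c HSPC, where 18.4% of all genes rose and 20.2% fell, 2 of the 11 menin-MLL partners fell and 1 rose, 7 of 14 DOT1L partners fell, and 5 of 15 PRC1 subunits rose and 2 fell. One of the 7 PRC2 partners rose and 1 fell, and 2 mark-removing and 2 other H3K4 enzymes rose. As deposited, 9 menin-MLL partners, 11 DOT1L partners, 6 PRC1 subunits, 4 PRC2 partners, 2 mark-removing and 5 other H3K4 enzymes fell, and 1 menin-MLL partner and 1 mark-removing enzyme rose. Over all 9560 genes 5537 fell and 244 rose as deposited. In Flt3-ITD HSPC, where 8.91% of all genes rose and 9.48% fell, 1 menin-MLL partner rose and 3 fell, 2 DOT1L partners, 3 PRC1 subunits and 1 other H3K4 enzyme fell, and no gene of the PRC2 and mark-removing lists passed the test. As deposited, 9 menin-MLL partners, 8 DOT1L partners, 4 PRC1 subunits, 2 PRC2 partners, 1 mark-removing and 5 other H3K4 enzymes fell there, and 1 menin-MLL partner rose. Over all genes 2982 fell there and 179 rose as deposited. The counts of these lists in the single mutants thus moved with the scaling.

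**Figure D5:**
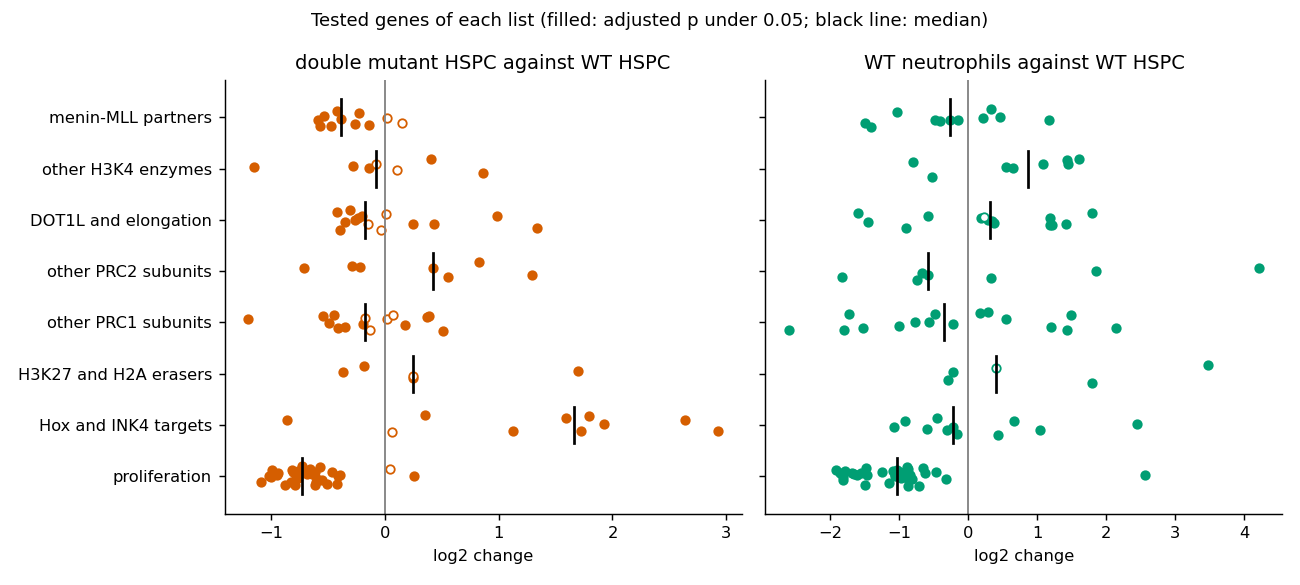
Log2 change (horizontal axis, scaled RPKM plus 0.5) of the tested genes of 8 lists in DM HSPC (left) and WT neutrophils (right), each against WT HSPC; points are genes, filled where the adjusted p is under 0.05, and black lines are medians. In DM HSPC the menin-MLL partners centre on -0.38, the targets on 1.66 and the proliferation genes on -0.73. HoxA genes and Cdkn2b among the targets passed the filter through the groups where they are high.

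Target genes of these complexes were measured in the same libraries. Hoxa9 averaged 4.16, 0.974 and 3.39 scaled RPKM in Npm1c, Flt3-ITD and DM HSPC, 0.115 in neutrophils and 0.793 in WT HSPC. Hoxa10 averaged 4.40, 0.0928 and 3.24 scaled RPKM in Npm1c, Flt3-ITD and DM HSPC, 0.0146 in neutrophils and 0.102 in WT HSPC. Hoxa7 averaged 1.32, 0.623 and 2.85 scaled RPKM in Npm1c, Flt3-ITD and DM HSPC, 0.0379 in neutrophils and 0.510 in WT HSPC. These 3 genes were thus highest in the groups with the Npm1c allele and Mx1-Cre, in one of which 2 of the 9 regulators were called and in the other 6. Meis1, their partner, averaged 0.800, 0.643 and 0.787 scaled RPKM in Npm1c, Flt3-ITD and DM HSPC, 0.149 in neutrophils and 0.751 in WT HSPC, below the level at which genes were tested. Of 10 tested targets 8 rose and 1 fell in DM HSPC, where 38.7% of all genes rose and 39.0% fell, and 6 rose and 1 fell in Npm1c HSPC, where 18.4% rose and 20.2% fell. The list held 16 targets. Hoxa5, Hoxa6, Hoxa7, Hoxa9 and Hoxa10 averaged under 1 scaled RPKM in WT and Flt3-ITD HSPC and entered through the groups with the Npm1c allele. Their rise there was partly set by the filter, so the shares over all genes do not measure this list. Cdkn2b, a cell cycle inhibitor of the INK4 locus that Polycomb represses, measured 3.54 and 3.38 scaled RPKM in DM HSPC, against 0.0413 and 0 in WT HSPC, a log2 change of 2.93 ± 0.062 (adjusted p = 3.56e-08) that depends on the pseudocount (4.90 with 0.1). It lay near 0 in HSPC outside the DM and entered the test through the DM libraries. Its rise was thus also partly set by the filter. Its neighbour Cdkn2a, the classical BMI1 target, measured 0.213 and 0.355 scaled RPKM in DM HSPC, against 0.00826 and 0.00798 in WT HSPC, and was too low to enter the test; it is named for its link to BMI1, after its values were seen. The inhibitor Cdkn1b rose in DM HSPC by 1.13 ± 0.042 (adjusted p = 5.13e-07) and in neutrophils by 2.45 ± 0.037 (adjusted p = 1.82e-10).

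Markers of proliferation and of other cell types also differed between the groups. Over all genes tested 38.7% rose and 39.0% fell in DM HSPC, and 44.6% and 46.6% in neutrophils. In Npm1c HSPC 18.4% rose and 20.2% fell, and in Flt3-ITD HSPC 8.91% and 9.48%. The 35 proliferation genes summed to 1037 to 1075 scaled RPKM in Npm1c, 1159 to 1192 in Flt3-ITD and 798 to 800.5 in DM HSPC, 592 to 597 in neutrophils and 1307 to 1318 in WT HSPC, and 25, 11 and 33 of them fell in Npm1c, Flt3-ITD and DM HSPC and 34 in neutrophils. The 12 monocyte and macrophage markers summed to 43.4 to 49.1 in Npm1c, 86.4 to 135 in Flt3-ITD and 738 to 741 in DM HSPC, 358 to 366 in neutrophils and 74.7 to 75.0 in WT HSPC, and 10 of 12 rose in DM HSPC with none at 0. In both WT HSPC libraries 6 of the 12 lay under 1 scaled RPKM, so some may have entered the test only where they are high. The 10 megakaryocyte markers summed to 141 and 236 in Npm1c, 153 to 161 in Flt3-ITD and 60.7 to 61.2 in DM HSPC, 217 to 218 in neutrophils and 231 to 241 in WT HSPC, and all 10 fell in DM HSPC (median log2 change -1.89). Of the 13 erythroid markers 9 fell and 4 rose in DM HSPC, and they summed to 746 to 757 in DM and 639 to 671 in WT HSPC. The 18 neutrophil markers summed to 92.1 and 410 scaled RPKM in Npm1c, 256 to 269 in Flt3-ITD and 99.9 to 116 in DM HSPC, 140865 to 142027 in neutrophils and 50.3 to 65.1 in WT HSPC. Npm1c replicate 2, at 410, stood apart from the other HSPC libraries, and 5 of 14 tested neutrophil markers rose in each single mutant. In both WT HSPC libraries 10 of the 18 lay under 1 scaled RPKM, so the same limit of the filter holds here. The 13 stem and progenitor markers summed to 115 to 117 in DM HSPC, against 136 in WT HSPC, with 7 of 9 tested markers lower. With the scaling used here, 25 proliferation genes fell in Npm1c HSPC, where 2 of the 9 genes rose, and 11 fell in Flt3-ITD HSPC, where none were called. On the deposited RPKM 34 and 26 proliferation genes fell in these groups, with 5 and 4 of the 9 genes lower. Over all 9560 genes 5537 fell and 244 rose in Npm1c on that scale, and 2982 fell and 179 rose in Flt3-ITD. The part of cell composition and proliferation in the changes of the 9 genes was not tested.

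Genes whose pattern was most like that of a member over the 10 libraries were found for the 6 members whose group means spanned more than 2-fold, among 4628 genes and by Pearson's r on log2 values. The libraries share groups and scaling, so high values arise easily. For Ezh1 they were Scaper (0.999), Arap1 (0.998) and Myl6 (0.998), and for Kmt2a Hivep1 (0.989), Atp9b (0.985) and Vti1b (0.984). For Bmi1 they were Heatr3, Atp5g3 and Cct4 (0.998 to 0.999), for Psip1 Asrgl1, Acd and Smc3 (0.996 to 0.999), for Dot1l Nop14, Atp1b2 and Mtap (0.996 to 0.999), and for Ezh2 Med1, Naa50 and Samm50 (0.988 to 0.990).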

How the data were processed

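RPKM values (reads per length of gene and per library total) were deposited by the authors, a table for each library; STAR 2.4.0, HTSeq, DiffBind and mm10 are named per the submitters' processing notes, without roles. Ribosomal RNA was removed and a directional kit used, per the labels' protocols. The annotation, the strand setting of counting and the total used for RPKM were not given in the sources used here, so reads from antisense partners cannot be told apart.

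Whole reads and gene lengths were recovered from the ratios between values (16655 of 16655 genes above 0 in at least 2 libraries, tolerance 0.02 reads; whole lengths for 99.8%). Because the share of reads on listed genes differed between libraries, which shifts every gene, RPKM were divided by a median-of-ratios factor from 6490 genes with at least 1 RPKM in all 10 libraries. Genes entered the test if 2 or more fitted libraries held at least 1 scaled RPKM. The test ran on log2(scaled RPKM + 0.5) with limma 3.58.1 (R 4.3.3), variance trend, Benjamini-Hochberg adjustment and a threshold of 0.05: 9560 genes in the 8 HSPC libraries, and 10217 in all 10 libraries for neutrophils. The pseudocount understates changes of low genes. With 2 libraries a group, p-values rest on a spread shared across groups and genes. Leaving out a WT HSPC library lowered the number of calls over all genes in both single mutants. Leaving out an Npm1c library lowered it in Npm1c against WT HSPC. Leaving out a DM library lowered it in each DM comparison and in the interaction. Leaving out a Flt3-ITD library raised it in Flt3-ITD against WT HSPC. A call lost or gained in those fits can thus be part of that general shift, which was not separated from the gene's own values. Some estimates moved as well: Suz12 in Npm1c HSPC was 0.25 without WT HSPC replicate 1 and 0.11 without WT HSPC replicate 2. The fit and the read recovery were tested on simulated data. Gene coordinates and union exon lengths are from GENCODE M21 on GRCm38, and promoters from RefSeq (GRCm38.p6); Psip1 had no promoter sequence in the table used. The 9 genes, the partner and marker lists and the tests were chosen with earlier results of these data known. All 9 genes are named in every comparison; of each list, up to 3 genes per comparison with the smallest adjusted p and at least 2 scaled RPKM in the higher group could be named. Alternatives changed the scaling, pseudocount, filter, variance model, gene length, measure and libraries, and added a replicate block or a term for Y-linked expression.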

Additional observations from a re-analysis of the deposited data

Results flagged for a closer look

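For the 16 genes given here the effect of Npm1c in Flt3-ITD cells differed from its effect in WT cells. The test was the interaction term of the limma fit (log2, adjusted p under 0.05), which 73.5% of all genes tested passed. The partners and Cdkn2b were picked by the smallest adjusted p of their list, so their passing was set by that choice. Hoxa7 (0.74), Hoxa5 (0.73), Hoxa6 (0.59), Hoxa9 (-0.44) and Hoxa10 (-0.36) passed as well. Among the 9 regulators the term was positive for Ezh1 (0.99) and Kmt2a (0.54) and negative for Bmi1 (-0.72), Suz12 (-0.64), Eed (-0.42), Ezh2 (-0.36) and Psip1 (-0.28). Among partners and targets it was positive for Cdkn2b (2.81), Mllt6 (1.64), Phf1 (1.36) and Kdm6b (1.23). It was negative for Kdm5b (-1.40), Dpy30 (-1.26), Pcgf6 (-0.82), Mtf2 (-0.78) and Rnf2 (-0.73). The value of Cdkn2b rests on a gene near 0 outside the DM, which entered the test through the DM libraries, and was 4.46 with a pseudocount of 0.1.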

How the results depend on the processing

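Of the called results for the 9 genes, 561 of 601 repeats under another setting kept direction and call, 38 lost the call and 2 turned; of the results not called, 379 of 462 stayed so, 50 became called and 33 turned. The other named genes were picked by the smallest adjusted p of their list, and all were called. For them 1060 of 1066 repeats kept direction and call, which that choice favoured. The number of the 9 genes called in Npm1c against WT HSPC was 2, and 5 on the deposited RPKM (all lower), 2 scaled to the listed sum and both lower in place of the 2 higher, 2 with factors from the 8 HSPC libraries (1 higher, 1 lower), 1 with no filter, 1 with no variance trend and 1 with a replicate block. In Flt3-ITD against WT HSPC it was 0, and 4 on the deposited RPKM and 4 scaled to the listed sum (all lower), and 1 with no variance trend, with a term for Y-linked expression, over union exon length and with voom weights on recovered reads. A filter at 5 RPKM left only 4 members to test. Of these it called 3 in DM against WT HSPC, 4 in DM against Npm1c, 4 for the interaction and 3 in neutrophils, all lower or negative. Of 4988 genes 1894 rose and 2166 fell in DM against WT HSPC, and 1897 and 2275 in DM against Npm1c. For the interaction 1819 terms were positive and 2078 negative. In neutrophils 3001 of 6098 genes rose and 2713 fell. With 1 library left out, the calls over all genes moved as well. Leaving out 1 library gave 0 to 2 for Npm1c, 0 to 1 for Flt3-ITD, 5 to 6 for DM against WT HSPC, 6 for DM against Npm1c, 5 to 6 for DM against Flt3-ITD, 6 to 7 for the interaction and 7 for neutrophils; where an arm keeps 1 library, that library is assumed to vary like the other groups.

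The log2 ratio of Ezh1 to Ezh2 moved with the pseudocount: with 0.1 it was -1.80 in Npm1c, -1.75 in Flt3-ITD and -0.46 in DM HSPC and 1.34 in neutrophils, and with 1 it was -1.24, -1.23 and -0.34 in those HSPC groups and 0.93 in neutrophils. Over union exon length with no pseudocount it was -2.42 in Npm1c, -2.37 in Flt3-ITD and -1.0 in DM HSPC, 0.88 in neutrophils and -2.02 in WT HSPC. Over single libraries it ran from -1.51 to -1.47 in Npm1c, -1.47 to -1.46 in Flt3-ITD, -0.42 to -0.37 in DM HSPC, 1.04 to 1.20 in neutrophils and -1.37 to -1.07 in WT HSPC.

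These changes turned sign. On the deposited RPKM, in Npm1c against WT HSPC, Kmt2a was -0.19, Dot1l -0.23, Ezh2 -0.080, Eed -0.090 and Suz12 -0.10; in Flt3-ITD, Ezh2 was -0.019, Eed -0.13 and Bmi1 -0.082; Dot1l was -0.13 in DM against Flt3-ITD and the interaction of Men1 0.068. Scaled to the listed sum, Kmt2a was -0.042 and Dot1l -0.068 in Npm1c, Eed -0.050 and Bmi1 -0.0069 in Flt3-ITD, Dot1l -0.030 in DM against Flt3-ITD, the interaction of Men1 0.0092 and Kmt2a -0.31 in neutrophils. After quantile normalization Dot1l was -0.19 in DM against Flt3-ITD and -0.27 for the interaction. With factors from the 8 HSPC libraries Ezh2 was 0.0076 in DM against WT HSPC and the interaction of Men1 0.041, and with a term for Y-linked expression the interaction of Dot1l was -0.019. The causes were not tested, beyond the shift of the median gene on the deposited RPKM, which was -0.26 in Npm1c and -0.14 in Flt3-ITD. Leaving out 1 library at a time, the log2 change spanned 0 for genes not called: in Npm1c against WT HSPC -0.031 to 0.096 for Kmt2a and -0.015 to 0.047 for Dot1l, in Flt3-ITD against WT HSPC -0.093 to 0.0016 for Men1, -0.044 to 0.14 for Eed and -0.012 to 0.18 for Bmi1, in DM against WT HSPC -0.17 to 0.080 for Ezh2, in DM against Flt3-ITD -0.018 to 0.063 for Dot1l, for the interaction -0.066 to 0.029 for Men1 and -0.034 to 0.047 for Dot1l, and in neutrophils -0.053 to 0.0092 for Eed.

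Groups share only replicate numbers: correlations of replicate differences between groups ran from -0.11 to 0.096 over 10217 genes, and 2 numbers cannot establish pairs. The replicate block lost Suz12 in Npm1c against WT HSPC (0.18, adjusted p = 0.0566). The 9 genes held at least 381 reads each per library, and no depth-matched setting was run; 2 libraries a group limit every estimate of spread.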
